A study of Homo sapiens with 20 samples.

Results

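The LILR and SIRP immune receptors are a group of 10 genes, LILRB1, LILRB2, LILRB3, LILRB4, LILRA1, LILRA2, LAIR1, SIRPA, SIRPB1 and SIRPB2. They were chosen by symbol from the 28051 named genes of the RNAseq tables, and all 10 were found and passed the filter on low values. In the ATACseq tables, 5 of 8286 regions list a member gene, and they belong to 3 of the 10 members, LAIR1, SIRPA and SIRPB1. The cells were HL60, an acute myeloid leukemia line of promyelocyte type. They carried either an HK3 knockout (labelled HK3-null), made with the lentiCRISPRv2 vector and cloned by limiting dilution, or Cas9 alone (Cas9 control). Both were treated for 36 h with 1 µM all-trans retinoic acid (ATRA), which drives myeloid differentiation, or with 0.01% DMSO as the diluent. The 4 groups held 3 RNAseq libraries each (12 in all) and 2 ATACseq libraries each (8 in all). All HK3-null libraries share a single knockout label, so they are not known to come from separate clones, and p-values measure the spread between these libraries only.

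These receptors sit on the surface of myeloid cells and set the threshold at which the cells respond. LILRB members, LAIR1 and SIRPA carry inhibitory motifs in the cytoplasmic tail that recruit the phosphatases PTPN6 and PTPN11, while LILRA members and SIRPB1 lack such motifs and signal through the adaptors FCER1G and TYROBP. LILRB1 and LILRB2 bind HLA class I, LAIR1 binds collagen, and SIRPA binds CD47, the signal that restrains phagocytosis.

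Total normalized counts were 29056349 to 31549781 per RNAseq library, with an estimated depth of 22700000 to 37000000 counts. HK3 itself read 90, 65 and 105 normalized counts in Cas9 control DMSO, 344, 302 and 346 in HK3-null DMSO, 1305, 1298 and 1850 in Cas9 control ATRA and 1384, 1285 and 1975 in HK3-null ATRA. HK3 RNA did not fall with the knockout label, and in DMSO it was higher in HK3-null than in Cas9 control. The authors report that they checked their knockout clones by sequencing genomic DNA and by mass spectrometry of the protein. The genotype below is that of the label. Cas9 control DMSO replicate 1 stood apart, since 16750 genes were above 0 in it, compared with 15031 to 15801 elsewhere, and FN1 and COL1A1 read 630 and 321 normalized counts. Promyelocyte markers were high in every library, summing to 542023 to 815492 normalized counts over 5 of 5 genes, while the 4 T cell markers summed to 1 to 12. MPO held most of the promyelocyte sum in every library. Median differences of all tested genes by genotype in DMSO were 0.08 on the log2 scale for chromosome 19, which holds the LILR genes and LAIR1, and 0.01 for chromosome 20, which holds the SIRP genes. They lay further from 0 on chromosomes 5 (-0.74), 6 (0.53), 8 (1.10) and 15 (-0.93), which bears on some genes of the lists below.

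The LILR genes lie side by side and are alike in sequence, which limits how reads can be assigned among them. Of all stretches of 42 bases in its canonical transcript, LILRB3 shared 35.4% with transcripts of other genes, 25.8% with LILRA6 alone. The shared part was 26.8% for LILRA2, 22.1% for LILRB1, 18.6% for LILRB2, 15.5% for SIRPA, 13.2% for SIRPB1 and 9.93% for LILRA1. It was 5.94% for LAIR1, 4.53% for LILRB4 and 3.64% for SIRPB2. Values of LILRB3 are the least certain for this reason, and those of its near copy LILRA6 likewise.

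For a few start sites the likeness reaches upstream, and the most similar ones are shown. Of 91 pairs of member start sites on chromosome 19, other starts of the same genes included, 3 were at least 90% identical over the 250 bases upstream, and the median was 49.3%. The sequences are the 250 bases before an annotated start of LILRA1 (chr19:54593382-54593631, plus strand), LILRB1 (chr19:54630234-54630483, plus strand) and LILRB2 (chr19:54281111-54281360, minus strand) from RefSeq on GRCh38, written 5′ to 3′. Capitals mark bases of LILRB1 and LILRB2 that differ from LILRA1 in a pairwise alignment or are found only in that gene.
LILRA1: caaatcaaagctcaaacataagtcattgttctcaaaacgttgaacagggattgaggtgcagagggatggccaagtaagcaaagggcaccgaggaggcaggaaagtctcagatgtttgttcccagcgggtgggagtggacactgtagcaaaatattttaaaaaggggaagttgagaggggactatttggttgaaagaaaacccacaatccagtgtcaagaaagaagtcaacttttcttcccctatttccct
LILRB1: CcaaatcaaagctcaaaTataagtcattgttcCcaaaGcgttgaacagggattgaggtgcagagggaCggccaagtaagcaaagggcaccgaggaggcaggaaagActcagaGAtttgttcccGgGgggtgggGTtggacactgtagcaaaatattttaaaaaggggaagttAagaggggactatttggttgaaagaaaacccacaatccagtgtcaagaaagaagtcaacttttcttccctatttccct
LILRB2: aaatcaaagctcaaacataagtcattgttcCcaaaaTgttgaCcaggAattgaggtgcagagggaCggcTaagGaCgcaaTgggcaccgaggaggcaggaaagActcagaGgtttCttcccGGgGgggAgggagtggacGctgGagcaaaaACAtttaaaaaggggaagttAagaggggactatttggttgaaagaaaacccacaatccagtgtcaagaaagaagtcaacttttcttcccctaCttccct
LILRB1 matched LILRA1 at 94.4% of aligned positions, with 12 substitutions. LILRB2 matched it at 90.4%, with 22 substitutions. Promoter sequences were matched for 8 of the 10 members.

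The 10 receptors covered a wide range of RNA levels. Per kilobase of canonical transcript, LAIR1 (854 normalized counts) and SIRPA (621) were the most abundant members in Cas9 control DMSO. LILRA2 (242) and SIRPB2 (217) followed, then SIRPB1 (49.0). LILRA1 (8.15), LILRB1 (6.66), LILRB2 (1.75) and LILRB3 (0.122) were low, and LILRB4 was at 0. In HK3-null ATRA the order was SIRPA (1944), LAIR1 (1898), SIRPB1 (787), LILRB2 (334), SIRPB2 (197) and LILRA2 (134), followed by LILRB3 (31.2), LILRA1 (24.3), LILRB1 (9.09) and LILRB4 (1.91). SIRPB1, LILRB2 and LILRB3 thus stood higher in that order than in Cas9 control DMSO, and the libraries of SIRPA and LAIR1 overlapped.

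**Figure D1:**
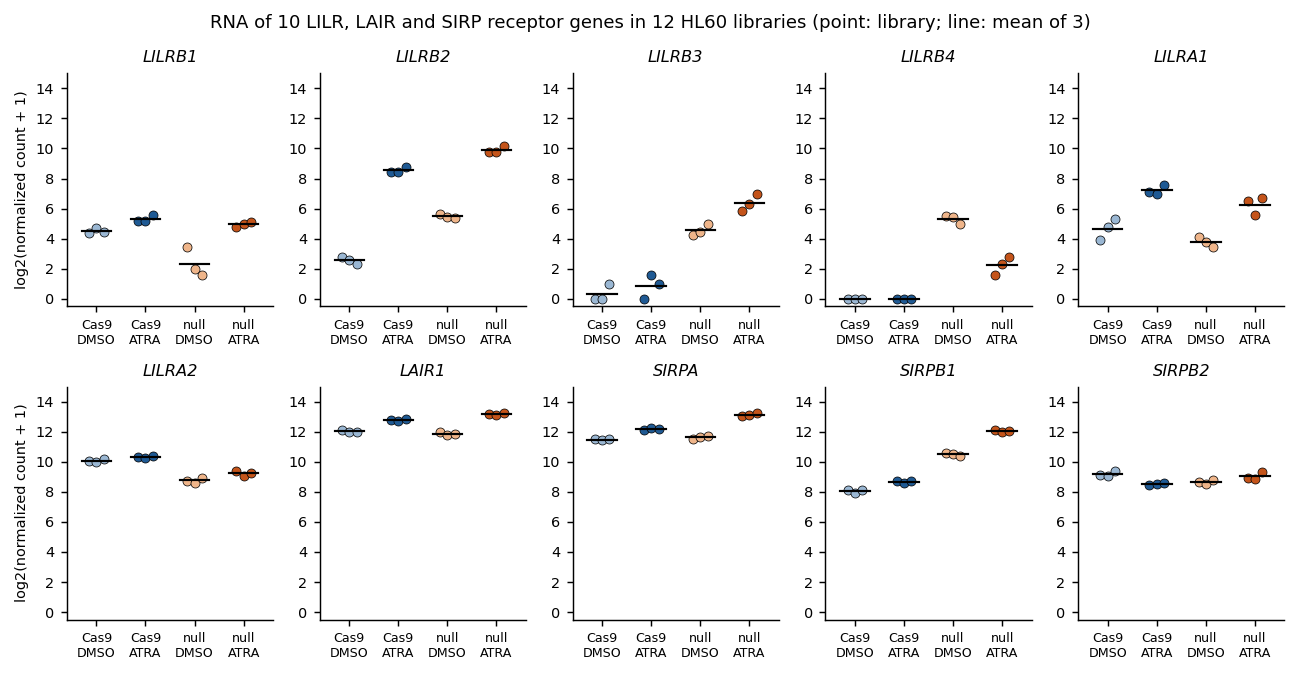
RNA levels of the 10 receptor genes. Each panel plots log2(normalized count + 1) on the vertical axis for the 4 groups on the horizontal axis, points are libraries (n = 3 per group) and lines are group means. LILRB4 is at 0 in all Cas9 control libraries, and SIRPB1 is higher in every library labelled HK3-null than in every Cas9 control library.

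The first comparison asked how the receptors differed between HK3-null and Cas9 control cells without ATRA. In DMSO, libraries labelled HK3-null held more RNA of LILRB2, LILRB3, LILRB4 and SIRPB1 and less of LILRB1 and LILRA2. A call needed an adjusted p (limma, Benjamini-Hochberg) under 0.05 and a difference of at least 2-fold in a fit of log2(normalized count + 1), a scale that understates changes of low genes. So 6 of 10 members were called, 4 higher and 2 lower, against 20.3% of all 13256 genes tested (11.5% higher, 8.74% lower). The groups did not overlap for 8 of 10 members, against 63.8% of all genes. The median difference was 0.00 on the log2 scale for the members and 0.001 for all genes. LILRB3 passed the filter on low values only through the HK3-null groups, and LILRB4 only through HK3-null DMSO, so both had to differ in order to be tested.

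Among the inhibitory members, LILRB4 alone had no counts in Cas9 control. This receptor is known from monocytic leukemia cells. It was at 0 in all 6 Cas9 control libraries, and read 44, 43 and 30 normalized counts in HK3-null DMSO and 2, 4 and 6 in HK3-null ATRA. Every HK3-null library was above every Cas9 control library. Against a floor of 3 counts per library, LILRB4 was at least 14.2-fold higher in HK3-null DMSO (adjusted p = 1.59e-07) and at least 1.19-fold higher in HK3-null ATRA (adjusted p = 0.000256). The second bound is small because the ATRA values lie near the floor, and with a pseudocount of 8 the call in ATRA was lost (0.57 on the log2 scale).

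LILRB3 read 0, 0 and 1 normalized counts in Cas9 control DMSO and 18, 21 and 30 in HK3-null DMSO. With ATRA the values in Cas9 control were 0, 2 and 1, with 57, 78 and 122 in HK3-null. The groups did not overlap in either treatment. The summed counts were 69 against 1 in DMSO, a ratio of 69.0 with an exact 95% interval of 12 to 2764 that covers counting error only, and 257 against 3 in ATRA, a ratio of 85.7 (29.0 to 418). Both differences were called (adjusted p = 6.16e-06 and 4.82e-07). LILRB3 passed the filter on low values only through the HK3-null groups, so it had to be high there to be tested.

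LILRB2, a receptor of HLA class I, read 6, 5 and 4 normalized counts in Cas9 control DMSO and 49, 43 and 41 in HK3-null DMSO. With ATRA it read 337, 342 and 439 in Cas9 control and 850, 883 and 1139 in HK3-null. The 4 groups did not overlap, and their order was Cas9 control DMSO, HK3-null DMSO, Cas9 control ATRA and HK3-null ATRA. The genotype difference was 2.93 ± 0.18 (SE) on the log2 scale in DMSO (8.87-fold, adjusted p = 3.25e-08) and 1.36 ± 0.18 in ATRA (2.57-fold, adjusted p = 2.64e-05).

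LILRB1, the other HLA class I receptor, went the opposite way. It read 20, 25 and 21 normalized counts in Cas9 control DMSO and 10, 3 and 2 in HK3-null DMSO, with no overlap. The difference was -2.17 ± 0.39 (SE, log2, adjusted p = 0.000416). In ATRA the counts in Cas9 control were 36, 36 and 47, with 26, 31 and 33 in HK3-null. That difference, -0.39 with a 95% interval of -1.24 to 0.46, did not pass the test (adjusted p = 0.408).

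The LILRA branch holds the activating receptors. LILRA2, which recognizes immunoglobulin cut by microbial proteases, read 1072, 1000 and 1185 normalized counts in Cas9 control DMSO and 430, 390 and 481 in HK3-null DMSO. Under ATRA it stood at 1263, 1210 and 1355 in Cas9 control and 670, 528 and 599 in HK3-null. HK3-null libraries were below all Cas9 control libraries in both treatments, and the mean was 0.399 times that of Cas9 control in DMSO (-1.32 ± 0.11, adjusted p = 4.06e-07) and 0.469 times in ATRA (-1.09 ± 0.11, adjusted p = 1.9e-06).

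LILRA1 read 14, 27 and 38 normalized counts in Cas9 control DMSO and 16, 13 and 10 in HK3-null DMSO, and these groups overlapped. In ATRA it read 139, 126 and 192 in Cas9 control and 88, 46 and 102 in HK3-null, with no overlap. Neither difference was called: it was -0.88 ± 0.37 in DMSO (adjusted p = 0.0582) and -1.0 ± 0.37 in ATRA (adjusted p = 0.0323), the latter just short of the 2-fold limit. Without Cas9 control DMSO replicate 1, the library that stood apart, the DMSO difference was -1.26 and was called (adjusted p = 0.00843). The ATRA difference was also called on leaving out Cas9 control replicate 2 (-1.12) or HK3-null replicate 1 (-1.12) or 3 (-1.22). Over all alternatives the difference ranged from -1.26 to -0.57 in DMSO and from -1.22 to -0.66 in ATRA. The highest adjusted p (limma) was 0.222 and 0.149. The call changed in 2 of 15 alternatives in DMSO and in 7 of 15 in ATRA.

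LAIR1, the inhibitory collagen receptor, was the most abundant member of its branch. It read 4488, 4024 and 3977 normalized counts in Cas9 control DMSO and 4109, 3554 and 3629 in HK3-null DMSO, and the groups overlapped. After ATRA the counts in Cas9 control were 6988, 6687 and 7222, with 9125, 8846 and 9791 in HK3-null, with no overlap. The DMSO difference of -0.15 (95% interval -0.30 to 0.01) did not pass the test, and the ATRA difference of 0.41 ± 0.07 passed it at 1.33-fold (adjusted p = 0.000251).

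Of the SIRP genes, which lie together on chromosome 20, SIRPB1 differed the most. This gene, a partner of TYROBP, read 279, 237 and 275 normalized counts in Cas9 control DMSO and 1558, 1452 and 1331 in HK3-null DMSO. The ATRA libraries held 416, 381 and 418 in Cas9 control and 4364, 4107 and 4222 in HK3-null. No library labelled HK3-null came near a Cas9 control library. The difference was 2.45 ± 0.08 in DMSO (5.49-fold, adjusted p = 2.33e-10) and 3.38 ± 0.08 in ATRA (10.4-fold, adjusted p = 2.13e-11).

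SIRPA, the inhibitory receptor of CD47, read 2862, 2757 and 2909 normalized counts in Cas9 control DMSO and 2934, 3207 and 3291 in HK3-null DMSO. ATRA-treated libraries held 4323, 4861 and 4622 in Cas9 control and 8388, 8731 and 9591 in HK3-null. The DMSO groups were adjacent, at 1.11-fold, and the difference of 0.14 ± 0.07 did not pass the test (adjusted p = 0.086). The ATRA groups were far apart, at 1.93-fold, and their difference of 0.95 ± 0.07 passed at an adjusted p of 1.06e-07 while staying under the 2-fold limit.

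SIRPB2 changed sides with treatment. It read 547, 539 and 657 normalized counts in Cas9 control DMSO and 393, 365 and 435 in HK3-null DMSO. With ATRA the counts in Cas9 control were 353, 373 and 377, with 479, 472 and 634 in HK3-null. The libraries labelled HK3-null were all lower in DMSO (-0.54 ± 0.13, adjusted p = 0.00253) and all higher in ATRA (0.51 ± 0.13, adjusted p = 0.0035), both under 2-fold.

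Counted over the ATRA libraries, 5 of 10 members were called by genotype, 4 higher (LILRB2, LILRB3, LILRB4 and SIRPB1) and 1 lower (LILRA2), against 23% of all genes (12.4% higher, 10.6% lower). Another 4 passed the adjusted p under 2-fold (LILRA1, LAIR1, SIRPA and SIRPB2). LILRB3 passed the filter on low values only through the HK3-null groups, so its call was partly set by the filter. LILRB4 passed it only through HK3-null DMSO, which is not part of this contrast, and its ATRA values lie near the floor. The groups did not overlap for 10 of 10 members, against 63.4% of all genes. The median difference was 0.73 on the log2 scale for the members and 0.009 for all genes.

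**Figure D2:**
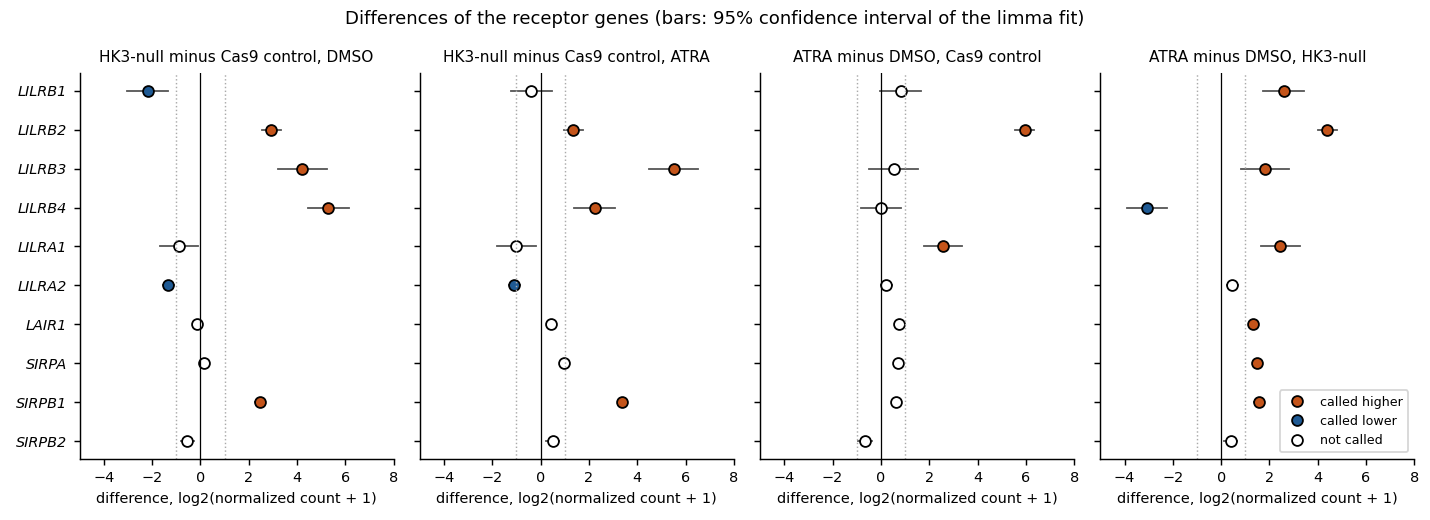
Differences of the 10 receptor genes in 4 contrasts. The horizontal axis is the difference in log2(normalized count + 1), points are estimates, bars are 95% confidence intervals of the limma fit over 12 libraries (some are hidden by the points), dotted lines mark the 2-fold limit and filled points passed both the test and that limit. LILRB4 is the single member called lower with ATRA in HK3-null (-3.06), where 7 others are called higher.

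The second question was how the receptors responded to ATRA in each genotype. In Cas9 control cells, LILRB2 and LILRA1 rose by at least 2-fold and no member fell by as much. So 2 of 10 members were called, against 10.4% of all genes (7.26% higher, 3.18% lower). The groups did not overlap for 8 of 10 members, against 51.3% of all genes, and the median difference was 0.66 for the members and 0 for all genes. LILRB2 went from a mean of 5.0 ± 1.0 normalized counts (SD, n = 3) to 373 ± 57.5, a difference of 5.96 ± 0.18 (SE, log2, adjusted p = 9.04e-11). LILRA1 went from 26.3 ± 12 to 152 ± 35.0, 5.78-fold (2.57 ± 0.37, adjusted p = 0.000128). LAIR1 (1.67-fold), SIRPA (1.62-fold) and SIRPB1 (1.54-fold) passed the adjusted p below the 2-fold limit, and SIRPB2 passed it in the other direction at 0.633 times the DMSO mean. LILRB1, LILRB3, LILRB4 and LILRA2 did not pass (adjusted p = 0.111, 0.386, 1 and 0.0966). A limit of 1.5-fold in place of 2-fold raised the count to 6 of 10.

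In HK3-null cells, 7 of 10 members were called higher with ATRA and 1 lower, against 15.3% of all genes (8.83% higher, 6.51% lower). The groups did not overlap for 10 of 10 members, against 58.6% of all genes. The median difference was 1.53 for the members and 0.014 for all genes. LILRB2 had the largest difference, from 44.3 ± 4.16 to 957 ± 158 normalized counts, 21.6-fold (4.39 ± 0.18, adjusted p = 1.31e-09). LILRB1 rose 6.0-fold, LILRA1 6.05-fold and LILRB3 3.72-fold. The abundant receptors moved by similar factors, LAIR1 by 2.46-fold, SIRPA by 2.83-fold and SIRPB1 by 2.92-fold. LILRB4 fell to 0.103 times its DMSO mean, from 39.0 ± 7.81 to 4.0 ± 2.0 (-3.06 ± 0.39, adjusted p = 2.69e-05). It passed the filter on low values only through HK3-null DMSO, so it had to be high there to be tested. LILRA2 (1.38-fold) and SIRPB2 (1.33-fold) passed the adjusted p under 2-fold. On the deposited log2 scale, where a count of 0 stands as the log2 of 0.001, the calls of LILRB3 and LILRB4 were lost (adjusted p = 0.638 and 0.109).

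The third comparison asked whether the response to ATRA itself differed by genotype, as an interaction of genotype and treatment. It was called for 6 of 10 members, 4 with a more positive response in HK3-null and 2 with a more negative one, against 9.97% of all genes (4.79% and 5.18%). The difference of responses was 1.05 ± 0.18 (SE, log2) for SIRPB2, 0.93 ± 0.12 for SIRPB1, 0.81 ± 0.10 for SIRPA and 0.56 ± 0.10 for LAIR1. It was -1.57 ± 0.25 for LILRB2 and -3.06 ± 0.55 for LILRB4. LILRB4 was admitted to the test only by HK3-null DMSO, its one high group, and its call was lost on the deposited log2 scale (adjusted p = 0.456). For LILRB2 this is a smaller fold from a higher DMSO level, since its difference between ATRA and DMSO in normalized counts was not smaller in HK3-null, and its call was lost with a pseudocount of 8 (-0.67, adjusted p = 0.0632). LILRB1 (1.78, adjusted p = 0.0629), LILRB3 (1.29, adjusted p = 0.274), LILRA1 (-0.12, adjusted p = 0.937) and LILRA2 (0.23, adjusted p = 0.425) did not pass. With the replicate number as a block the call of LILRB1 was gained (adjusted p = 0.0296), and 3182 rather than 1321 of all genes were called. Requiring a difference of at least 1 left 3 members.

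Other genes of the same families and loci were set beside the members. Of 16 listed, 14 were in the tables and 8 were tested. By genotype 5 of 8 were called higher in DMSO and 6 of 8 in ATRA, and 0 were lower, also at an unadjusted limma p under 0.05. Of all genes, 11.5% were called higher and 8.74% lower in DMSO, and 12.4% and 10.6% in ATRA. Their median differences were 2.17 and 2.54, against 0.001 and 0.009 for all genes. LILRA4 and LILRA6 passed the filter on low values only through HK3-null ATRA, so they had to be high there to be tested. LILRA5, an activating receptor, was at 0 in Cas9 control DMSO and read 35, 26 and 39 normalized counts in HK3-null DMSO, at least 12.1-fold higher (adjusted p = 2.16e-09). With ATRA it reached 166, 187 and 259 in Cas9 control, at least 74.3-fold above DMSO, and 1022, 921 and 1403 in HK3-null. On the log2 scale its response to ATRA differed between the genotypes (-2.64 ± 0.32, adjusted p = 0.00027), with a size that depends on the pseudocount. In normalized counts its mean went from 0 to 204 in Cas9 control and from 33.3 to 1115 in HK3-null. LILRA6, the near copy of LILRB3, read 0 in Cas9 control DMSO and 5, 5 and 14 in HK3-null DMSO, at least 2.91-fold higher. In ATRA the summed counts were 96 in HK3-null against 2 in Cas9 control, a ratio of 48.0 (exact 95% interval 12.9 to 402). FCAR, the receptor of IgA, read 173, 188 and 189 in Cas9 control DMSO and 1346, 1238 and 975 in HK3-null DMSO. The ATRA values were 106, 89 and 111 against 1278, 998 and 1070, a difference of 3.44 ± 0.14 (adjusted p = 8.3e-10).
SIRPD, beside SIRPB1, had means of 8.33 and 47.3 normalized counts in Cas9 control and HK3-null DMSO. With ATRA 2 of 8 neighbours were called higher in Cas9 control (LILRA5 and SIRPD) and 4 of 8 in HK3-null, with medians of 0.44 and 1.12. The shares of all genes called higher were 7.26% and 8.83%.

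RNA of the proteins that carry the signals of these receptors was read from a further list. Of 15 listed genes, 14 were in the tables and tested. By genotype 4 were called higher and 1 lower in DMSO, and 5 higher and 0 lower in ATRA (2 lower at an unadjusted limma p under 0.05), with medians of 0.42 in both. Of all genes, 11.5% were called higher and 8.74% lower in DMSO, and 12.4% and 10.6% in ATRA. TYROBP, the adaptor of SIRPB1, had a mean of 441 ± 29.5 normalized counts (SD, n = 3) in Cas9 control DMSO and 2132 ± 39.2 in HK3-null DMSO, and 1274 ± 117 and 6761 ± 298 in ATRA. The genotype differences were 2.27 ± 0.08 and 2.41 ± 0.08. FCER1G, the adaptor of LILRA members, differed by 0.41 ± 0.08 in DMSO and 1.56 ± 0.08 in ATRA. FGR, a kinase of the Src family, read 48, 46 and 36 in Cas9 control DMSO and 1241, 1080 and 1214 in HK3-null DMSO, the largest difference of the list (4.74 ± 0.10). LYN (1.62 in DMSO, 1.77 in ATRA), a kinase of the same family, was higher as well, and it lies on chromosome 8, whose genes had medians of 1.10 and 1.05. CSK, their inhibitory kinase, was lower in DMSO (-1.17) and lies on chromosome 15, whose median was -0.93. The phosphatases stayed under 2-fold, with PTPN6 differing by 0.82 in DMSO and 0.90 in ATRA and PTPN11 by -0.15 and 0.03. With ATRA 4 genes were called higher in Cas9 control and 5 in HK3-null, led by FGR (8.08 and 4.34). The shares of all genes called higher were 7.26% and 8.83%. The interaction was called for 3 of the list, against 9.97% of all genes, among them FCER1G (1.15) and FGR (-3.74). For FGR this is a smaller fold from a higher DMSO level. Its mean went from 43.3 to 11970 normalized counts in Cas9 control and from 1178 to 23933 in HK3-null.

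Of 16 listed ligands, all were in the tables and 12 were tested. By genotype 1 was called higher in DMSO and 5 in ATRA, and 0 were called lower in either (1 in each at an unadjusted limma p under 0.05), with medians of 0.68 and 0.94. Of all genes, 11.5% were called higher and 8.74% lower in DMSO, and 12.4% and 10.6% in ATRA. The single DMSO call does not set the ligands apart. HLA-E differed by 1.46 ± 0.06 in DMSO and 1.30 ± 0.06 in ATRA, while the median of its chromosome 6 was 0.53 and 0.57. COL17A1, a transmembrane collagen and ligand of LAIR1, had means of 270 ± 23.5 and 788 ± 98.4 normalized counts in Cas9 control and HK3-null ATRA (1.54 ± 0.12). B2M, the light chain of HLA class I, was lower in HK3-null, by -0.82 in DMSO and -0.73 in ATRA, and it lies on chromosome 15 with medians of -0.93 and -0.97. CD47, the ligand of SIRPA, differed by 0.34 ± 0.08 in DMSO (adjusted p = 0.00376) and 0.12 ± 0.08 in ATRA (adjusted p = 0.217). With ATRA 1 ligand was called higher in Cas9 control (HLA-E, 1.47) and 5 in HK3-null, led by HLA-E (1.32). The shares of all genes called higher were 7.26% and 8.83%. COL17A1 alone passed the interaction (0.60), against 9.97% of all genes. FN1 and COL1A1 rested on Cas9 control DMSO replicate 1 and were not called.

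Among 27 other paired or inhibitory receptors of myeloid cells, 23 were tested. By genotype 13 were called higher and 1 lower in DMSO (SIGLEC10, -1.06), and 16 higher and 0 lower in ATRA (0 at an unadjusted limma p under 0.05), with medians of 1.41 and 1.8. Of all genes, 11.5% were called higher and 8.74% lower in DMSO, and 12.4% and 10.6% in ATRA. CEACAM1 read 2, 0 and 1 normalized counts in Cas9 control DMSO and 65, 75 and 90 in HK3-null DMSO, a ratio of summed counts of 76.7 (exact 95% interval 25.9 to 374). CEACAM3, a granulocyte receptor that passed the filter only through the HK3-null groups, read 0, 1 and 3 against 77, 76 and 101 in DMSO, and 5, 7 and 4 against 113, 144 and 210 in ATRA (4.61 ± 0.43). With ATRA 14 were called higher and 1 lower in Cas9 control, led by CEACAM1 (6.48) and CD300LB (5.47). In HK3-null 15 were called higher and 0 lower (2 at an unadjusted limma p under 0.05), led by SIGLEC11 (5.62) and CD300LB (5.09). Of all genes, 7.26% were called higher and 3.18% lower with ATRA in Cas9 control, and 8.83% and 6.51% in HK3-null. SIGLEC11 and TREM2, called higher in both genotypes, passed the filter only through the ATRA groups, so they had to be high there to be tested. SIGLEC11 summed to 302 counts in HK3-null ATRA against 3 in HK3-null DMSO. The interaction was positive for 3 (PILRA 1.23, SIGLEC10 1.08 and CLEC5A) and negative for 1 (CD300A), against 4.79% and 5.18% of all genes. CD300A had a higher DMSO mean in HK3-null (493 normalized counts) than in Cas9 control (45.3).

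**Figure D3:**
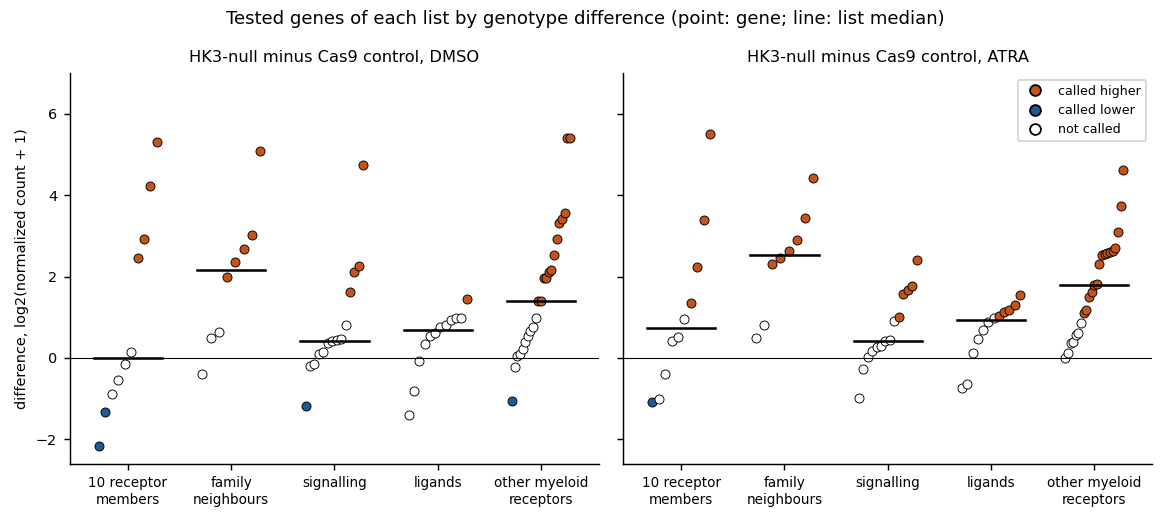
Genotype differences of the receptor members and of the 4 gene lists. The vertical axis is the difference in log2(normalized count + 1) between HK3-null and Cas9 control in DMSO (left) and in ATRA (right), points are tested genes, filled where called, and lines are list medians. The members reach from -2.17 to 5.30 in DMSO around a median of 0.00, and the family neighbours have a median of 2.17.

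Some markers of maturation differed between the same groups. For comparison, 11.5% of all genes were called higher and 8.74% lower by genotype in DMSO, and 12.4% and 10.6% in ATRA. Of 5 promyelocyte markers, 1 was called lower in HK3-null and 0 higher in each treatment. This was CTSG, at -1.78 ± 0.09 in DMSO and -1.37 ± 0.09 in ATRA. At an unadjusted limma p under 0.05, 2 were lower and 1 higher in each treatment. In DMSO 7 of 7 tested neutrophil markers were called higher in HK3-null, of which LTF and MMP9 passed the filter only through the HK3-null groups, and their sum over 8 genes was 1795 to 1923 normalized counts in Cas9 control and 4787 to 5426 in HK3-null. Of 5 tested monocyte and macrophage markers 4 were called higher in DMSO, with sums over 7 genes of 248 to 345 and 1344 to 1380. CD14, which also passed the filter only through the HK3-null groups, read 3, 4 and 2 normalized counts against 125, 124 and 116 in DMSO. In ATRA the neutrophil sums ran from 4473 to 5050 in Cas9 control and from 14965 to 16395 in HK3-null, and the monocyte sums from 2215 to 2951 and from 5387 to 5698. CSF3R again held most of the neutrophil sums, with means of 3361 in Cas9 control and 12772 in HK3-null. By call in ATRA, 6 of 7 neutrophil markers were higher and 0 lower (0 at an unadjusted limma p under 0.05), while 3 of 5 monocyte markers were higher and 1 lower. The lower one was CSF1R (-1.03, adjusted p = 0.0031), and CCR2 differed by -0.88 (adjusted p = 0.00467). CD68 held most of the monocyte sums in HK3-null ATRA, with means of 888 in Cas9 control and 4537 in HK3-null. The 3 NK cell markers, of which NKG7 was tested, summed to 208 to 252 in Cas9 control DMSO, 416 to 434 in HK3-null DMSO, 275 to 312 in Cas9 control ATRA and 1114 to 1215 in HK3-null ATRA. The 3 B cell markers summed to 46 to 110 and the 3 erythroid markers to 0 to 13. The part of cell maturation in the receptor differences was not tested, and in bulk RNA more cells of a kind and more RNA per cell cannot be told apart.

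Over the 12 libraries, the genes most like LAIR1 in pattern were FYTTD1 (Pearson r = 0.994), ANXA1 (0.991) and CDKN2C (0.991), chosen as the 3 highest of all tested genes. Those most like SIRPA were PDLIM5 (0.996), SMG6 (0.992) and PIK3CD (0.992). All of these had their highest group mean in HK3-null ATRA. The libraries fall into 4 groups, so these values describe the group means rather than single libraries.

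Chromatin accessibility near the members was read from 5 regions. All 8286 deposited regions differ by at least 1.5-fold between the genotypes in ATRA, since they were selected on that contrast, so values with ATRA are descriptions and the test was run in DMSO alone. There 4 of 5 regions were called (2 higher, 2 lower), against 86.6% of the 6214 regions tested (42.7% higher, 43.9% lower), which does not set the members apart. The median difference of all tested regions was 0.33 on the log2(signal + 1) scale. The signal is a fragment density and its depth is unknown. Cas9 control ATRA replicate 2 had a summed signal of 244488 against 345345 to 390632 in the other 7 libraries, and without it 4 regions were still called.

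Both SIRPA regions were less accessible in the libraries labelled HK3-null. The first, chr20:1908534-1909532 (coordinates as deposited, GRCh38), lies in an intron, 13626 bases from the canonical start. Its signal was 70.9 and 78.3 in Cas9 control DMSO and 7.84 and 8.81 in HK3-null DMSO, a difference of -3.02 ± 0.38 (SE, adjusted p = 1.82e-08). With ATRA it was 29.5 and 24.3 in Cas9 control and 7.26 and 5.74 in HK3-null. The Cas9 control signal was thus lower with ATRA than with DMSO, while SIRPA RNA in Cas9 control was higher with ATRA. The second, chr20:1900318-1900682, lies in an intron 5093 bases from the start and read 72.8 and 94.3 against 26.3 and 32.3 in DMSO (-1.47 ± 0.32, adjusted p = 0.000109), and 96.6 and 68.3 against 38.8 and 24.1 in ATRA. SIRPA RNA was not lower in HK3-null at either treatment.

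The LAIR1 region, chr19:54373682-54374080, lies within the RefSeq gene and 3323 bases upstream of the nearest GENCODE start. Its signal was 52.9 and 56.4 in Cas9 control DMSO and 134 and 106 in HK3-null DMSO (1.11 ± 0.30, adjusted p = 0.00114), while LAIR1 RNA in DMSO did not pass the test. In ATRA it was 48.2 and 33.3 against 75.7 and 107. A region that overlaps SIRPG and SIRPG-AS1, chr20:1633551-1633918, is listed with SIRPB1 and lies 13673 bases upstream of it. It read 19.2 and 14.5 against 43.4 and 38.9 in DMSO (1.25 ± 0.51, adjusted p = 0.0227), and without Cas9 control DMSO replicate 2 the call was lost (adjusted p = 0.0588). The ATRA signal was 16.0 and 1.27 against 33.2 and 27.5, the lowest value being that of the library with the low summed signal. The last region, chr20:1567865-1568240 in an intron of SIRPB1, read 26.6 and 38.1 against 23.2 and 14.8 in DMSO and did not pass (-0.75 ± 0.43, adjusted p = 0.0985), and with the 4 DMSO libraries alone it passed (adjusted p = 0.0396). SIRPB1, with RNA higher in HK3-null, thus had a region of higher and a region of lower mean signal.

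**Figure D4:**
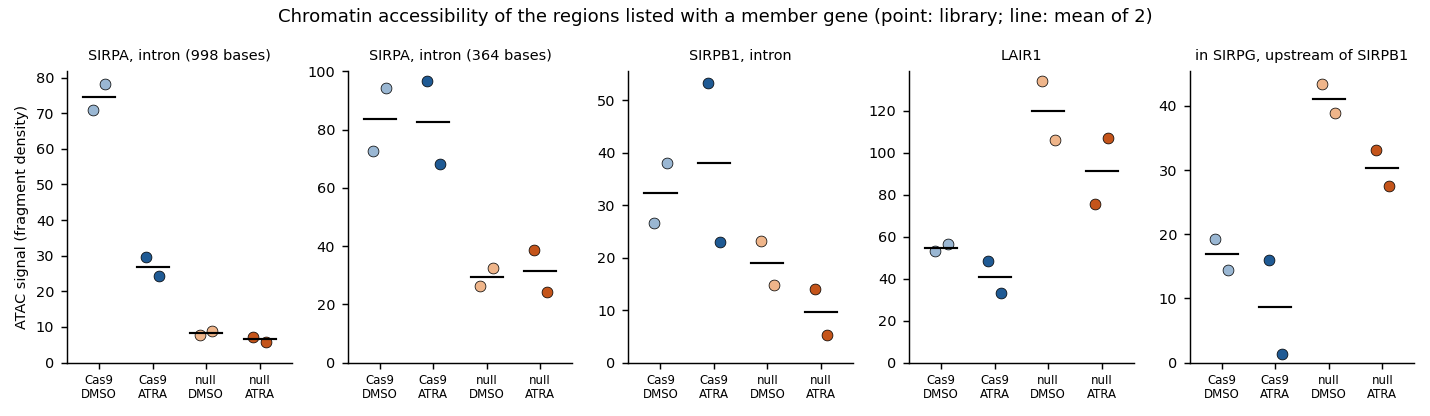
ATACseq signal of the 5 regions listed with a member gene. The vertical axis is the fragment density from 0, scaled per panel, points are libraries (n = 2 per group) and lines are means. Both SIRPA regions are lower in every library labelled HK3-null, and the LAIR1 region is higher.

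The central 300 bases of the SIRPA region with the largest difference (chr20:1908884-1909183) and of the more accessible LAIR1 (chr19:54373732-54374031) and SIRPG (chr20:1633585-1633884) regions are given, as the region with the largest difference and the pair called higher in HK3-null, on the plus strand of GRCh38. Capitals mark matches, on either strand, to the motifs GAGGAA (ETS type, as bound by PU.1), AGGTCA (retinoid receptor type) and TTGCNNAA (C/EBP type).
SIRPA: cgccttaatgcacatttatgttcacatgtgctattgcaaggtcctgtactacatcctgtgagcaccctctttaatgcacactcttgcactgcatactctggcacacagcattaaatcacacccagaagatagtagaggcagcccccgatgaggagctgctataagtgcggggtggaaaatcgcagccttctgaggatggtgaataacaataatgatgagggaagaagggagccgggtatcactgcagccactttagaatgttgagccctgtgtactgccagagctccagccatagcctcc
LAIR1: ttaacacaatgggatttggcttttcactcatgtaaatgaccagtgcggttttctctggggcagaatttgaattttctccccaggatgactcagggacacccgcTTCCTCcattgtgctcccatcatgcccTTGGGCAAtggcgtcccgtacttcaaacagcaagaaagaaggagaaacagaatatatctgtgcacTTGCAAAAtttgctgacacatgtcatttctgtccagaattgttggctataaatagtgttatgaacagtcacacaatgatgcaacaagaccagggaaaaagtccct
SIRPG: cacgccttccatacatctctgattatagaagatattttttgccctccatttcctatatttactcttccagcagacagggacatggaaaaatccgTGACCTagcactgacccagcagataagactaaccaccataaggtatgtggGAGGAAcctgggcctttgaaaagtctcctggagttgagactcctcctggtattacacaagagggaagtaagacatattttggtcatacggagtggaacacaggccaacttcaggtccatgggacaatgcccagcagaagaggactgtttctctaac
The LAIR1 window held 1 GAGGAA and 2 TTGCNNAA matches, the SIRPG window 1 GAGGAA and 1 AGGTCA match, and the SIRPA window none. In windows of the same length, GAGGAA was found in 41.7% of 487 deposited regions on chromosomes 19 and 20, AGGTCA in 20.1% and TTGCNNAA in 13.6%. A match describes these letters only.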

How the data were processed

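Gene expression (RNAseq, 12 libraries) and chromatin accessibility (ATACseq, 8 libraries) of HL60 cells were analysed. The authors mapped reads to GRCh38 and deposited, per gene, the log2 of a count that per the labels' tools was scaled with DESeq2. Raising 2 to each deposited log2 value gave whole numbers in 100% of cases, and 0 is written as the log2 of 0.001. The methods describe RPKM, but no scaling by length was visible. Counts before scaling were not used here, so depths were estimated from the spacing of the whole numbers (scaling factors 0.7805 to 1.215). Rows without a gene name (330 of 28381) held at most 0.00926% of counts and were left out. For ATACseq, peaks were called by MACS2 and merged, and the authors deposited a fragment density per region as signal.

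Normalized counts were fitted as log2(count + 1) with limma 3.58.1 in R 4.3.3 (lmFit, eBayes with trend), with 1 mean for each of 4 groups over the 13256 genes whose mean log2 value exceeded 3 in any group. Adjusted p-values are Benjamini-Hochberg values over all genes. Signal was fitted as log2(signal + 1) over the 6214 regions whose mean exceeded 17.1 (percentile 25), with calls at 1.5-fold. Same-numbered libraries of different groups deviated together (18 pairs, r = 0.178 to 0.631 over 10667 genes). For 36 pairs of different number r was -0.643 to 0.286, and the ranges overlap. The numbers may thus pair the libraries, while the labels do not state a pairing. The fit without the block is the main one, so its p-values leave such a pairing out, and the block is an alternative. Promoters come from RefSeq, lengths and starts from GENCODE on GRCh38. All promoters on chromosomes 19 and 20 matched the genome (2838 of 2838). Sequences were handled with Biopython 1.88.

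All 10 members, all their regions and, per list and contrast, the 2 called genes with the largest difference were named, except that some listed genes are not reported by name here. CD14, CSF1R, CCR2, CD68, MMP9, MPO, CSF3R, LILRA4, PTPN6, PTPN11, B2M, CD47, CSK, CLEC5A, CD300A, FN1 and COL1A1 were named after their values were seen. Members and lists were chosen with earlier results of these data known. Alternatives were another pseudocount, the deposited values, no filter, quantile normalization, only the groups compared, robust eBayes, other fold limits, the block, chromosome medians subtracted and each replicate left out.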

Additional observations from a re-analysis of the deposited data

Results flagged for a closer look

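The response to ATRA differed between the genotypes, by a limma test of the interaction, for 6 receptors. On the log2 scale the response in HK3-null minus that in Cas9 control was 0.56 for LAIR1 (adjusted p = 0.0037), 0.81 for SIRPA (adjusted p = 0.000228), 0.93 for SIRPB1 (adjusted p = 0.000399) and 1.05 for SIRPB2 (adjusted p = 0.00244). It was -1.57 for LILRB2 (adjusted p = 0.00189) and -3.06 for LILRB4 (adjusted p = 0.00358). For SIRPB2 the 3 ATRA libraries lay below the 3 DMSO libraries in Cas9 control and above them in HK3-null. LILRB4 was at 0 in all Cas9 control libraries, so its value is that of the fall in HK3-null alone. It passed the filter on low values only through HK3-null DMSO, and its call was lost with the deposited log2 values (-3.40, adjusted p = 0.456). The call of LILRB2 was lost with a pseudocount of 8.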

How the results depend on the processing

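The number of members called stayed within 1.5 times under every alternative run, except under the other fold limits, where it was 6 for ATRA in Cas9 control at 1.5-fold and 3 for the interaction at a difference of at least 1. Leaving out 1 replicate gave 6 to 7 members by genotype in DMSO, 5 to 6 in ATRA, 2 and 8 for ATRA in Cas9 control and HK3-null, 6 to 7 for the interaction and 3 to 4 of 5 regions. Directions turned in uncalled interactions only: LILRB3 was -1.8 with the deposited log2 values, and LILRA1 was 0.06 without Cas9 control ATRA replicate 3, 0.26 without Cas9 control DMSO replicate 1, 0.23 without HK3-null ATRA replicate 2 and 0.04 without HK3-null DMSO replicate 1, in a range of -0.43 to 0.26. Of the other values of single members, 769 kept their call, 18 gained and 8 lost it in the same direction, and the cause was not tested. The replicate block changed the call of LILRB1 in the interaction and no other. Quantile normalization moved the calls of all genes with ATRA in Cas9 control from 962 higher of 1384 to 767 of 1384, with both called members still higher. The interaction among all genes counted 456 at a difference of at least 1 and 3182 with the block, and fold limits of 1.5 gave 4459 and 5117 genes by genotype and 2688 and 3768 with ATRA. The floor of 3 counts per library was set for the fold bounds and is not a measured detection limit. Values near or under it are uncertain, and 2 ATACseq libraries per group limit the regions.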
